A study of Mus musculus with 16 samples.

Results

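Metallothioneins are small, cysteine-rich proteins that bind zinc and copper, and 3 of their genes, Mt1, Mt2 and Mt3, were described on 16 mouse gene arrays that measured 19938 genes. The genes were taken by symbol. They were chosen by the level of Mt2, the gene most raised in cells derived from induced pluripotent stem cells (iPSCs) relative to primary neurons, so their difference from primary neurons is given below as a description with no test. Each of the 3 genes had 1 probe set that named it alone. The cells are labelled as midbrain dopaminergic neurons, whose degeneration causes the motor signs of Parkinson's disease, and the study asked how they differentiate under DKK3, a member of the Dickkopf family of secreted proteins, together with the Wnt ligand WNT1. All cells carried the genotype Pitx3GFP/+, in which Pitx3, a transcription factor gene of these neurons, carries green fluorescent protein (GFP) on 1 allele, on the mixed strain C57BL/6 x 129/Ola. The first group held 5 biological replicates differentiated from iPSCs with recombinant human WNT1 and DKK3 (treated), and the second 5 biological replicates without them (control). Primary neurons of the embryonic ventral midbrain at E14.5 and at E13.5 made up the other groups, each with 3 technical replicate arrays, so that each stage was 1 sample. The design text states a sort for GFP for all cells, while the sample labels name it for the primary cells. The sources used here do not say if biological replicates were separate cultures or separate iPSC lines, and p-values then reflect only the spread among these samples, which may be technical.

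In most tissues Mt1 and Mt2 are transcribed together and are induced by zinc and other metals, glucocorticoids and oxidants; the zinc-sensing transcription factor Mtf1 mediates the response to metals by binding metal response elements in their promoters. In the brain Mt1 and Mt2 are known mainly from astrocytes and other non-neuronal cells, whereas Mt3 is the brain form, first described as an inhibitor of neuronal growth. A further member, Mt4, is the form of stratified epithelia. All of them lie side by side on chromosome 8 in the order Mt4, Mt3, Mt2 and Mt1.

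Because metal response elements link these genes to zinc, their promoters are shown. The windows are those of a RefSeq table of the assembly GRCm38.p6, from 250 bases before to 50 bases after the annotated gene start, which need not be the start used most, and the 250 bases before the start are printed for each gene. Capitals mark the metal response element core, searched as TGCACNC or TGCGCNC on both strands, and in Mt2 also 1 antioxidant response element core, searched as TGACNNNGC. The windows are chr8:94178839-94179088 for Mt1, chr8:94172368-94172617 for Mt2 and chr8:94152357-94152606 for Mt3, all on the plus strand.
Mt1: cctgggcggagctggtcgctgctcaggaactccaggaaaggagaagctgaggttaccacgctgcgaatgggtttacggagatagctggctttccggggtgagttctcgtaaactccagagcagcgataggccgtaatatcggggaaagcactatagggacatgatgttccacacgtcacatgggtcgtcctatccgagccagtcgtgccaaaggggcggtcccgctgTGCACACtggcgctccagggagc
Mt2: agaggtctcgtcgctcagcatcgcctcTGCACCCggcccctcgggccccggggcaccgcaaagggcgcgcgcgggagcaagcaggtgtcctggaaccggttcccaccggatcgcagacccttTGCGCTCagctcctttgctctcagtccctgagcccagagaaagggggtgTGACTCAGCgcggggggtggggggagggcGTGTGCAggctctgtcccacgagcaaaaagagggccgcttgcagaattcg
Mt3: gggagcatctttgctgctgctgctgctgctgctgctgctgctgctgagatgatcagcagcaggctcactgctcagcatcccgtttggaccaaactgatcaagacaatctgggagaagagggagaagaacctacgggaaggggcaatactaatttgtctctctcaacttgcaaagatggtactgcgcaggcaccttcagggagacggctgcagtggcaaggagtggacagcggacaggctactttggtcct
Further matches lay within 50 bases past the annotated start, at chr8:94179089-94179117 for Mt1, chr8:94172620-94172630 for Mt2 and chr8:94152632-94152642 for Mt3, and only these sites with their immediate flanks are printed.
Mt1: tcTGCACTCcgcccgaaaagTGCGCTCgg
Mt2: tcGTGCGCAgg
Mt3: agTGCACACac
The window of Mt1 held 3 metal response element cores, that of Mt2 4 and that of Mt3 1, which lies past the start. Mt4, whose sequence is not printed, also had 1. Of 32851 windows of this length in the table, 25.7% held at least 1 such core, 1.97% at least 3 and 0.517% at least 4. The antioxidant response element core in the Mt2 window, 79 bases before the start, was a match found in 12.4% of all windows, and the windows of Mt1 and Mt3 held none. A match is a run of letters and not a measured binding site. Where the start used most lies past the annotated start, a window may miss part of the promoter, which may apply to Mt1. The counts are therefore those of the windows, and a window without a match does not show that the gene lacks such sites.

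**Figure D1:**
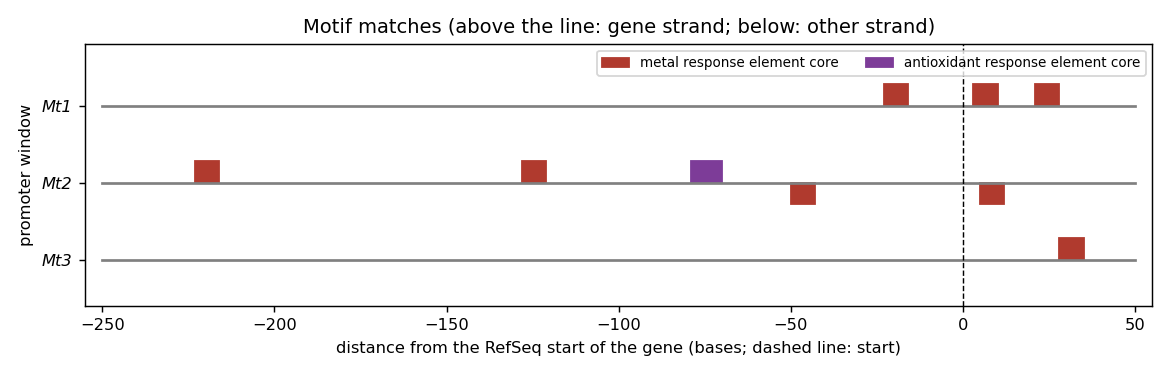
Positions of motif matches in the promoter windows of Mt1, Mt2 and Mt3; the x axis is the distance in bases from the annotated gene start, boxes above a line are on the gene's strand and boxes below it on the other strand. The Mt2 window has 4 metal response element cores and 1 antioxidant response element core, that of Mt1 has 3 metal response element cores and that of Mt3 has 1, past the start. The windows may not hold the whole promoters.

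The arrays were checked against their labels. Levels are log2 values after RMA normalization, so 1 unit is a doubling, and array medians lay between 5.852 and 6.018. On 4 of the 5 treated and 4 of the 5 control arrays, Th, the tyrosine hydroxylase gene that marks dopaminergic neurons, was low, at 5.29 to 5.93 in treated and 5.34 to 6.17 in control arrays, against 10.52 to 11.53 on the primary arrays. On the arrays numbered 5 Th was 9.22 (treated) and 8.52 (control), and the dopamine transporter gene Slc6a3 was 8.87 and 8.44, close to its primary mean of 8.93. Nanog, a gene of pluripotent cells, was 6.40 on treated and 6.42 on control array 5, against 8.42 to 10.14 on the other treated arrays, 8.52 to 9.32 on the other control arrays and a primary mean of 6.18. The data therefore go against the neuron label for most iPSC-derived arrays, which are called iPSC-derived cells here, and results are given with and without the arrays numbered 5 where these changed a value or stood apart.

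Mt2 was among the brightest probe sets of the iPSC-derived cells and near or below the array median in primary neurons. Its log2 level in treated replicates 1 to 5 was 12.64, 12.80, 12.56, 12.42 and 12.08, and in control replicates 1 to 5 it was 12.51, 12.45, 12.49, 12.40 and 11.87. On the E14.5 arrays it was 5.34, 5.29 and 5.89, and on the E13.5 arrays 5.96, 5.24 and 5.61. All 10 iPSC-derived arrays lay above the 90th percentile of their own array, and 5 of the 6 primary arrays lay below their array's median but 0 of 6 below its lower quartile. In both iPSC-derived groups the lowest value was that of the array numbered 5, the array with high Th. Means were 12.50 ± 0.27 in treated cells (SD, n = 5) and 12.34 ± 0.27 in control cells (n = 5). Without the arrays numbered 5 they were 12.61 ± 0.16 and 12.46 ± 0.05 (n = 4 each).

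Mt1, which is usually expressed together with Mt2, was also high in every iPSC-derived array and intermediate in primary neurons. Treated replicates 1 to 5 had 12.10, 12.04, 11.85, 11.50 and 11.75, and control replicates 1 to 5 had 11.80, 11.98, 11.76, 11.67 and 11.66. The E14.5 arrays had 7.76, 7.21 and 7.82, and the E13.5 arrays 6.69, 6.68 and 7.41. Treated replicate 4 was the lowest iPSC-derived array, and the arrays numbered 5 lay within the range of the others in treated cells and just below them in control cells. The mean was 11.85 ± 0.24 in treated and 11.78 ± 0.13 in control cells (SD, n = 5 each). No primary array lay below its array's median.

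Mt3, the brain form, differed least between the cell sources and varied most between the replicates of each iPSC-derived group. Its levels were 10.16, 9.35, 9.47, 8.90 and 9.24 in treated replicates 1 to 5 and 9.32, 9.82, 9.99, 9.17 and 9.33 in control replicates 1 to 5. They were 7.36, 8.33 and 8.28 on the E14.5 arrays and 7.54, 7.93 and 7.97 on the E13.5 arrays. All iPSC-derived arrays were above all primary arrays, the nearest being treated replicate 4 at 8.90 and an E14.5 array at 8.33, and the arrays numbered 5 lay inside the range of their groups. The SD was 0.465 in treated and 0.356 in control cells, wider than that of 90.4% and 85.2% of all genes in the same group, where the median SD was 0.195 and 0.189. For Mt2 the corresponding percentiles were 69.8 and 72.6, and for Mt1 62.2 and 25.9.

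**Figure D2:**
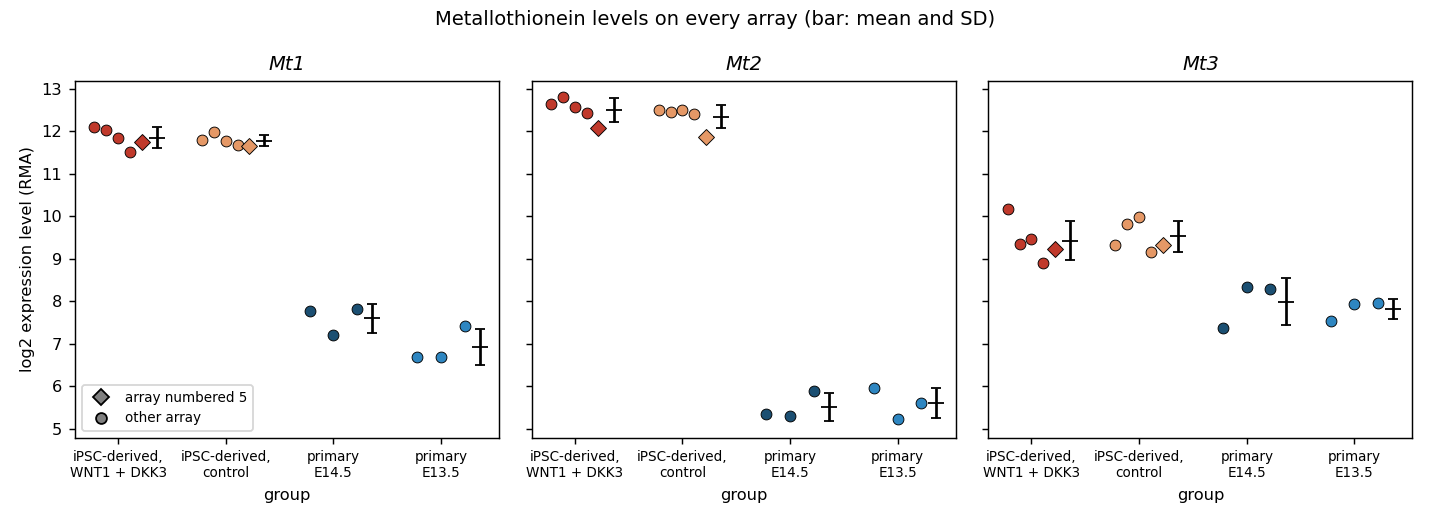
Log2 level (y axis, RMA) of Mt1, Mt2 and Mt3 on each of the 16 arrays by group (x axis), with the group mean and SD as a bar and the arrays numbered 5 as diamonds. For each gene all iPSC-derived arrays lie above all primary arrays; treated and control arrays overlap.

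With the samples taken as unpaired, none of the 3 genes differed between treated and control cells by more than the spread between replicates. The treated minus control log2 difference was 0.16 for Mt2 (SE 0.16), with a 95% interval from -0.19 to 0.51 and adjusted p = 1.0 by limma over all genes. It was 0.07 for Mt1 (SE 0.12), with an interval from -0.19 to 0.34, and -0.10 for Mt3 (SE 0.23), with an interval from -0.61 to 0.41. The limma adjusted p was 1.0 for both, and the unadjusted p was 0.338 for Mt2, 0.57 for Mt1 and 0.671 for Mt3. As folds, the intervals reached 0.88 to 1.42 for Mt2, 0.87 to 1.26 for Mt1 and 0.65 to 1.33 for Mt3, so they held neither a doubling nor a halving of any of the 3 genes. An exact two-sided permutation test over all assignments of the 10 arrays gave p = 0.397 for Mt2, 0.595 for Mt1 and 0.73 for Mt3. Over all 19938 genes limma called 0 higher (0.0%) and 0 lower (0.0%), and 300 had an unadjusted p under 0.05. The direction of Mt3 turned when 1 array was left out: without treated replicate 4 its difference was 0.03 and without control replicate 3 it was 0.02.

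**Figure D3:**
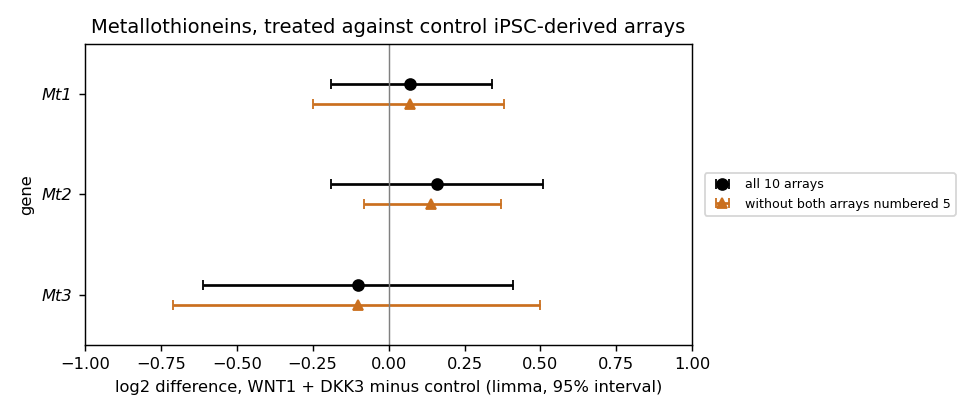
Treated minus control log2 difference (x axis) of Mt1, Mt2 and Mt3 from limma with 95% intervals, over all 10 arrays (circles) and without both arrays numbered 5 (triangles). Every interval includes 0.

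The 2 embryonic stages could be compared by level alone, since each is 1 sample. The E14.5 mean of Mt1 was 7.60 ± 0.34 and the E13.5 mean 6.93 ± 0.42 (SD over 3 technical arrays each), a difference of 0.67. Mt3 was 7.99 ± 0.55 at E14.5 and 7.81 ± 0.24 at E13.5, and Mt2 5.51 ± 0.33 at E14.5 and 5.60 ± 0.36 at E13.5. The arrays of the stages overlapped for all 3 genes. Stage means at least 1 apart with no overlap were found for 35 genes higher at E14.5 (0.176% of all genes) and 13 lower (0.0652%), and no metallothionein was among them.

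The difference from primary neurons, which chose the genes, was largest for Mt2. For each iPSC-derived group, primary neurons were taken as the mean of both stage means. Mt2 was 12.50 in treated cells and 5.55 in primary neurons, a difference of 6.95 or 123-fold, and 12.34 in control cells against the same 5.55, a difference of 6.79 or 111-fold. It ranked 1 of 19938 genes by that difference in each group. Next in order among treated cells were Ttr, the gene of the thyroid hormone carrier transthyretin, at 6.78 and Ifitm3, an interferon-induced membrane protein gene, at 6.68; among control cells they were Ifitm3 at 6.75 and Ttr at 6.67. The margin to the next gene was therefore smaller than the range of Mt2 over arrays, whose single-array differences ran from 6.53 to 7.25 in treated and from 6.31 to 6.96 in control cells. Array folds depend on background correction and normalization, so these folds are sizes on this array and not molecule ratios.

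Mt1 differed by 4.58 in treated cells (24.0-fold, rank 42) and by 4.51 in control cells (22.8-fold, rank 51). Mt3 differed by 1.52 in treated cells (2.87-fold, rank 1272) and by 1.62 in control cells (3.08-fold, rank 1179). Single-array differences of Mt1 ran from 4.24 to 4.83 in treated and from 4.40 to 4.72 in control cells, and those of Mt3 from 1.00 to 2.26 in treated and from 1.27 to 2.09 in control cells. Mt4, which was not chosen, was low everywhere, at 4.74 ± 0.50 in treated cells, 4.49 ± 0.30 in control cells (SD, n = 5 each) and 4.26 in primary neurons. Its difference was 0.48 in treated cells (limma adjusted p = 0.202) and 0.23 in control cells (adjusted p = 0.536), and its level lay below the array median on all 16 arrays. Treated and control cells share the primary samples, so their differences from these are not independent of each other.

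Markers of several cell types moved with the same contrast. In both iPSC-derived groups 13 of 13 measured midbrain dopaminergic markers and 10 of 10 general neuron markers were lower than in primary neurons by limma, while 10 of 10 fibroblast and mesenchyme markers and 9 of 11 markers of astrocytes and radial glia were higher and 1 of the 11, Slc1a2, was lower. Over all genes limma called 19.9% higher and 21.3% lower in treated cells and 19.3% higher and 22.5% lower in control cells. The mean level of the glial list ran from 8.69 to 9.58 over the iPSC-derived arrays and from 6.33 to 6.98 over the primary arrays, and that of the fibroblast list from 8.86 to 9.88 and from 5.52 to 5.87. Keratinocyte and simple epithelium markers had means of 7.87 to 10.04 on iPSC-derived and 5.79 to 5.98 on primary arrays, with 6 of 8 higher in both groups. Pluripotent cell markers had means of 5.24 to 8.83 on iPSC-derived arrays and 5.21 to 5.74 on primary arrays, with 0 of 9 called in either direction, although 3 of the 9 in treated and 4 in control cells had an unadjusted p under 0.05. On the arrays numbered 5 their mean was 5.24 (treated) and 5.37 (control). On the other arrays it ran from 7.26 to 8.83 in treated and from 7.20 to 8.30 in control cells, above all primary arrays. Fewer cells of a type and less RNA per cell cannot be told apart in these bulk samples, and the part of other cell types in the metallothionein levels was not tested.

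Among the remaining lists, 4 of 7 choroid plexus markers, 2 of 9 visceral endoderm and liver markers and 1 of 7 microglia markers were higher in each iPSC-derived group, and 1, 1 and 2 of them were lower. Of 5 trophoblast markers 1 was higher in treated and 2 in control cells, and of 8 muscle markers 5 were higher in treated and 4 in control cells. Over all genes 19.9% were higher and 21.3% lower in treated cells and 19.3% higher and 22.5% lower in control cells, and the shares of the endoderm and microglia lists lie near these. The choroid plexus markers that rose were Ttr, by 6.78 in treated and 6.67 in control cells, Folr1 by 2.36 and 2.17, Clic6 by 1.98 and 2.03, and Aqp1 by 1.64 and 1.30; Otx2 was lower (-1.10 and -0.96), and Kcne2 and Kl did not pass. Of the endoderm and liver list Ttr, which it shares with the choroid plexus list, and Trf, the transferrin gene, rose, Trf by 3.88 in treated and 3.94 in control cells, Alb was lower (-0.43 and -0.31), and Afp, Apoa1, Apob, Sox17, Hnf4a and Cubn did not pass.

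The 3 metallothioneins were then set against each other over the 10 iPSC-derived arrays. Mt1 and Mt2 had a Pearson correlation of 0.59 (permutation p = 0.0713, adjusted 0.107 over 3 pairs) and a Spearman rho of 0.83 (permutation p = 0.00475, adjusted 0.0142). For Mt1 and Mt3 the values were r = 0.69 (permutation p = 0.0255, adjusted 0.0765) and rho = 0.76 (permutation p = 0.0148, adjusted 0.0222), and for Mt2 and Mt3 r = 0.32 (permutation p = 0.383) and rho = 0.56 (permutation p = 0.0958). Without the 2 arrays farthest from the median of the first gene, r was 0.72 for Mt1 and Mt2, 0.30 for Mt1 and Mt3 and 0.24 for Mt2 and Mt3. By rank, over the same 8 arrays, rho was 0.83 for Mt1 and Mt2 (permutation p = 0.0154, adjusted 0.0461) and 0.52 for Mt1 and Mt3 (permutation p = 0.197). Leaving out the arrays most extreme in the first gene narrows its range. The lower values for Mt1 and Mt3 therefore cannot show whether their relation rested on these 2 arrays. Without both arrays numbered 5, which were low in Mt2, r was 0.72, 0.68 and 0.24, and no pair passed the adjustment. With the group mean subtracted from each array r was 0.57, 0.74 and 0.38, and that of 0.74 for Mt1 and Mt3 passed (permutation p = 0.0125, adjusted 0.0376). By rank in that setting, rho was 0.72 for Mt1 and Mt2 and 0.73 for Mt1 and Mt3, and both passed (permutation test, adjusted p = 0.0352 for each). For Mt2 and Mt3 rho was 0.42 (permutation p = 0.232).

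The 5 genes whose pattern over the 10 iPSC-derived arrays was most like that of each metallothionein were then listed. They were ranked by Pearson correlation among 2883 or 2884 genes above the median level with an SD of at least 0.3. Mt1 and Mt2, with SDs of 0.19 and 0.27 over these arrays, fell below that limit and could not be listed for each other. Short lists from so many genes need not overlap, so no meaning is given to their being different. For Mt1 the genes were Fgf18, a fibroblast growth factor gene (r = 0.94), Etv5, an ETS transcription factor gene (0.93), Ldb2 (0.88), Lmcd1 (0.88) and Nt5dc2 (0.87). Without the arrays numbered 5 these were 0.96, 0.99, 0.87, 0.89 and 0.93, and Etv5 was then first in order. Etv5 ran from 8.13 to 9.54 and Fgf18 from 6.91 to 7.82 over these arrays.

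For Mt2 the most alike genes were Rbm38, an RNA-binding protein gene (r = 0.97), Cdk1, the mitotic kinase gene (0.96), Ube2c, a ubiquitin-conjugating enzyme gene of mitosis (0.96), Asns, the asparagine synthetase gene (0.95), and Gca (0.95). All 5 were low on the arrays numbered 5: Cdk1 was 6.30 on treated array 5 and 5.79 on control array 5, with a highest value of 9.43 elsewhere, and Ube2c was 6.87 and 6.33 with a highest value of 9.70. Without these 2 arrays the correlations were 0.91 for Rbm38, 0.85 for Cdk1, 0.84 for Ube2c, and 0.75 for Asns and for Gca, and Asns and Gca were then 79th and 84th in order.

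For Mt3 they were Reln, the gene of the secreted protein reelin (r = 0.91), Slc39a12, a zinc importer gene (0.91), Sulf1, an extracellular sulfatase gene (0.91), Lrrtm3 (0.89) and Slc4a4, a sodium bicarbonate cotransporter gene (0.88). Without the arrays numbered 5 they were 0.92, 0.94, 0.93, 0.94 and 0.88. Slc39a12 ran from 7.56 to 8.47 over the 10 arrays and Reln from 6.66 to 7.96. These correlations are the highest of many over few arrays that share their groups, and they are given as a description with no test.

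**Figure D4:**
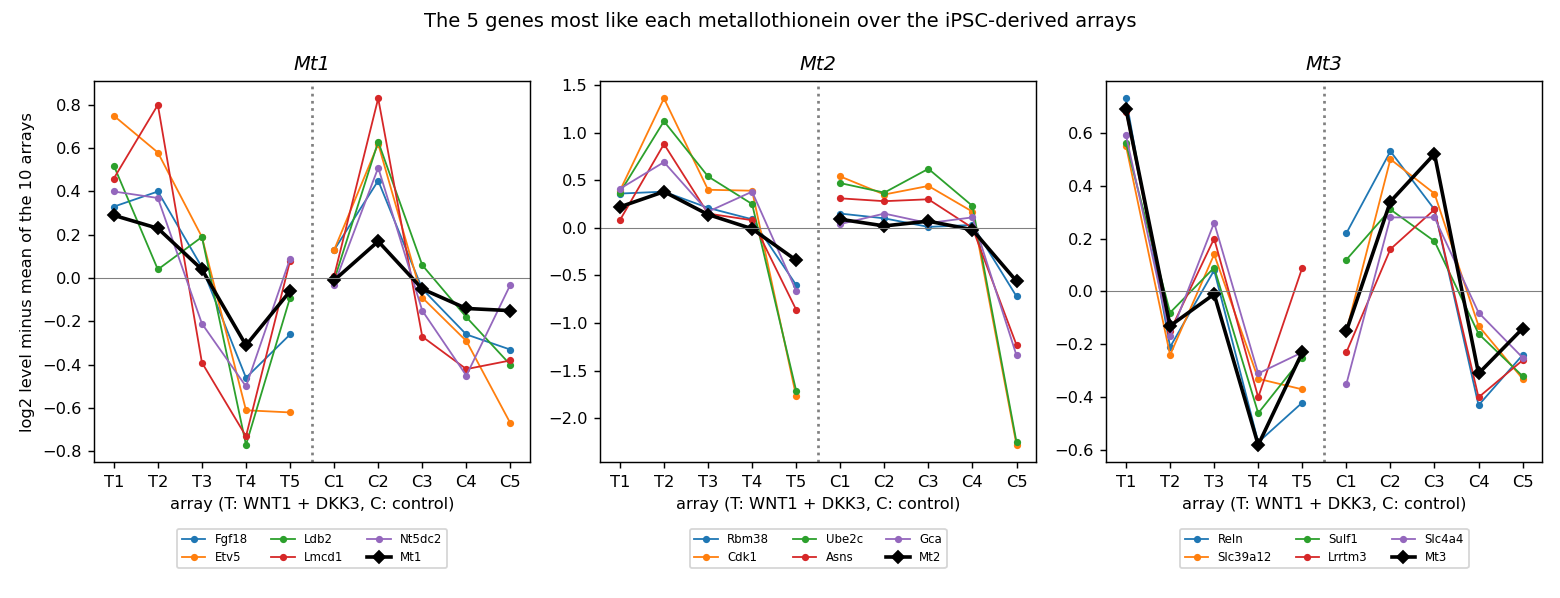
Log2 level minus the mean of the 10 iPSC-derived arrays (y axis) for Mt1, Mt2 and Mt3 (black) and the 5 genes most like each, on treated arrays T1 to T5 and control arrays C1 to C5 (x axis; lines join the values of a gene and the order of arrays has no meaning). The 5 genes most like Mt2 are lowest on T5 and C5, whereas most of those like Mt1 or Mt3 are lowest on another array.

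Genes that handle metals or respond to the known inducers of metallothioneins were examined in the same cells through 9 lists with 88 measured genes. In treated cells 45 of 88 were higher than in primary neurons and 5 lower by limma, and in control cells 45 were higher and 7 lower, against 19.9% higher and 21.3% lower over all genes in treated cells and 19.3% and 22.5% in control cells. Their median difference was 0.54 in treated and 0.52 in control cells, against a median over all genes of -0.09 and -0.11. Without the arrays numbered 5, 52 were higher and 7 lower in treated cells and 50 were higher and 7 lower in control cells. The share over all genes in that setting is not given here. Between treated and control cells 0 of 88 passed in either direction, and 0 had an unadjusted p under 0.05.

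Mtf1, the zinc sensor of the cell, was 8.35 ± 0.47 in treated cells, 8.45 ± 0.37 in control cells (SD, n = 5 each) and 7.75 in primary neurons, and neither difference passed in limma (0.60, adjusted p = 0.122, and 0.71, adjusted p = 0.0742). Without both arrays numbered 5 both passed, at 0.75 (adjusted p = 0.0426) and 0.77 (adjusted p = 0.0374). Slc30a1, the zinc exporter gene of the cell membrane and a standard Mtf1 target, differed by 0.36 in treated cells (adjusted p = 0.203) and 0.12 in control cells (adjusted p = 0.673) and had means of 7.95, 7.71 and 7.59 in treated, control and primary samples. Without both arrays numbered 5 its difference in treated cells was 0.44 and passed (limma adjusted p = 0.0177). In control cells it passed under none of 18 alternatives. Slc39a10, a zinc importer gene that Mtf1 represses, fell by 0.48 in treated cells (adjusted p = 0.00273) and by 0.53 in control cells (adjusted p = 0.00137).

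In all, 4 of the 9 genes of this list, which holds Mtf1, Mt4 and genes reported as Mtf1 targets, rose in both groups and 1, Slc39a10, fell. Of all genes 19.9% rose and 21.3% fell in treated cells, and 19.3% rose and 22.5% fell in control cells. Csrp1, which encodes a LIM-domain protein of the cytoskeleton, rose by 4.21 ± 0.29 (SE) in treated and 4.28 ± 0.29 in control cells, with limma adjusted p = 4.01e-07 and 3.43e-07. Ndrg1, a gene of stress and hypoxia responses, rose by 2.51 and 2.61, and Gclc, which encodes the catalytic subunit of the enzyme that limits glutathione synthesis, by 1.00 and 0.98. Pgf, the placental growth factor gene, rose by 1.22 (adjusted p = 0.0399) and 1.23 (adjusted p = 0.0387), a call that was lost in 7 of 18 alternatives in each group. Selenoh, a selenoprotein gene, differed by 0.01 in treated and -0.09 in control cells and did not pass.

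Among zinc exporters of the Slc30 family 3 of 10 rose and 1 fell in each group, against 19.9% and 19.3% of all genes rising. Slc30a6 rose by 0.96 in treated and 0.95 in control cells and Slc30a5 by 0.85 and 1.02, both exporters into the early secretory pathway, and Slc30a3, which loads zinc into synaptic vesicles, had differences of -1.02 and -1.06, both of which passed. In treated cells 5 of 10 rose without the arrays numbered 5, and fewer rose with the E13.5 sample alone as primary. With the E14.5 sample alone as primary the call of Slc30a3 was lost in both groups. Its difference was then -0.70 in treated and -0.74 in control cells. Of 14 zinc importers of the Slc39 family 7 rose and 2 fell in treated cells, and 8 rose and 4 fell in control cells. For comparison with both zinc lists, 19.9% of all genes rose and 21.3% fell in treated cells, and 19.3% and 22.5% in control cells. With arrays centred on their medians, or without treated replicate 5, 4 fell in treated cells too. Slc39a12, which also followed Mt3 over the arrays, rose by 2.81 and 2.91 and Slc39a1, a widely expressed importer, by 2.01 in both. Slc39a8 differed by 1.14 in treated cells, which did not pass (adjusted p = 0.0578), and rose by 1.18 in control cells (adjusted p = 0.0489), a call lost in 8 of 18 alternatives. In treated cells its difference passed in 6 of 18, among them 1.28 without both arrays numbered 5 (limma adjusted p = 0.0374). With a single stage as primary, E13.5 or E14.5, fewer importers rose in control cells. Such fits hold 1 primary sample, and whether their lost calls are particular to these lists was not tested. Shares over all genes in the alternative settings are not given here.

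Of 15 measured copper-handling genes 11 rose and 1 fell in treated cells and 10 rose and 1 fell in control cells. For comparison with this list and the iron list, 19.9% of all genes rose and 21.3% fell in treated cells. In control cells 19.3% rose and 22.5% fell. Cox17, the copper chaperone of cytochrome oxidase assembly, rose by 2.00 in both, Steap4, a metalloreductase gene, by 2.17 in treated and 2.25 in control cells, and Atox1, the chaperone that hands copper to the export pumps, by 1.67 and 1.58. Iron-handling genes rose in 5 of 10 cases in treated and 6 of 10 in control cells, and none fell. The largest differences were those of Cp, the gene of the copper-carrying ferroxidase ceruloplasmin, at 3.70 and 3.99, of Hmox1, which encodes the haem-degrading enzyme and is an oxidant-response gene, at 3.07 in both, and of Slc40a1, the iron exporter gene, at 2.12 and 1.92.

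Genes of the oxidant response rose in 6 of 9 cases in both groups and none fell, with a median difference of 1.82 in treated and 1.85 in control cells. For this and the next 2 lists, the shares over all genes were 19.9% higher and 21.3% lower in treated cells. In control cells they were 19.3% and 22.5%. Nfe2l2, which encodes the transcription factor that binds antioxidant response elements, was 10.50 ± 0.03 in treated and 10.50 ± 0.09 in control cells (SD, n = 5 each) against 6.20 in primary neurons, a rise of 4.30 in both (limma adjusted p = 4e-09 and 3.89e-09). Slc7a11, its cystine transporter target, rose by 1.95 and 2.10. Among the glucocorticoid receptor and its responsive genes 7 of 10 rose in treated and 6 of 10 in control cells, and none fell. In treated cells fewer rose with the E13.5 sample alone as primary, which leaves 1 primary sample, and 1 fell without treated replicate 2. Shares over all genes in these settings are not given here. The receptor gene Nr3c1 rose by 2.18 and 2.48, Cebpd, a transcription factor gene, by 1.65 and 1.67, and Errfi1, an inhibitor of the epidermal growth factor receptor, by 1.45 and 1.61. Heat shock genes rose in 3 of 8 cases in both groups, and in 5 of 8 without the arrays numbered 5. The share over all genes without these arrays is not given here. Hspb1, a small heat shock protein gene, rose by 4.86 and 4.89, the co-chaperone gene Bag3 by 3.75 and 3.73, and Dnajb1 by 0.82 and 0.84.

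**Figure D5:**
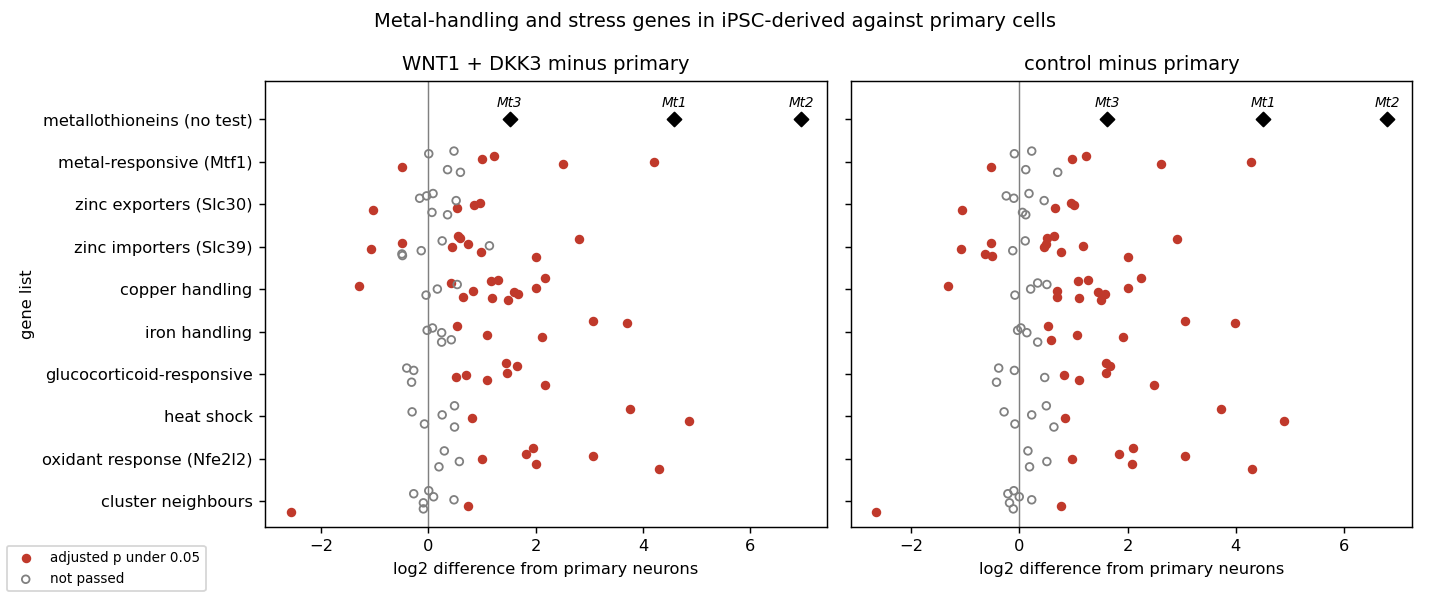
Log2 difference from primary neurons (x axis) of metal-handling and stress genes by list (y axis), in treated cells (left) and control cells (right); filled points have a limma adjusted p under 0.05 and black diamonds are Mt1, Mt2 and Mt3, which were not tested. Mt2 lies at 6.95 in treated and 6.79 in control cells. It was chosen as the gene most raised, so its place beyond every gene of the lists follows from that choice.

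The neighbours of the metallothionein cluster on chromosome 8 were examined in the same fit. In RefSeq order the genes nearest to it run Nudt21, Ogfod1, Bbs2, Mt4, Mt3, Mt2, Mt1, Nup93, Slc12a3 and Herpud1. Of 8 measured neighbours, Mt4 included, 1 rose and 1 fell in each group, against 19.9% rising and 21.3% falling over all genes in treated cells and 19.3% and 22.5% in control cells. Ogfod1, an oxygenase gene, rose by 0.75 in treated and 0.78 in control cells, and Gnao1, which lies farther out on the side of Mt4 and encodes a G protein subunit of neurons, had differences of -2.56 and -2.64, both of which passed. The genes that flank the cluster, Bbs2 and Nup93, which were named here after their values were seen, differed by -0.09 and 0.10 in treated cells (limma adjusted p = 0.707 and 0.808) and by -0.18 and 0.00 in control cells (adjusted p = 0.435 and 0.991).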

How the data were processed

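Expression was measured on 16 Affymetrix gene arrays in 4 groups (treated, control, E14.5, E13.5). The deposited table holds the authors' log2 values of 35556 probe sets; RMA (background correction, quantile normalization, probe summary) and Affymetrix Expression Console 1.2 are named in the submitters' processing notes. Per the labels' protocols, RNA was amplified with a whole-transcriptome kit for small amounts, which can add spread between arrays, and normalized levels are relative. Whether all arrays were normalized in 1 run, a genome build and detection calls are not given in the sources used here. Precision is limited by the number of arrays.

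The platform's probe table lists 23410 probe sets, 21789 with 1 gene symbol, 1621 with several and 12146 of the table's probe sets not at all; symbols of 21698 were updated by Entrez ID with RefSeq (GRCm38.p6), which also gave the promoter windows. The probe set of highest mean was taken for each of the 19938 genes, of which 999 had several.

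Tests were limma fits (version 3.58.1, R 4.3.3; lmFit, eBayes, Benjamini-Hochberg over all genes, threshold 0.05), after a test on simulated data: treated against control over 10 arrays (8 residual degrees of freedom), and both against primary neurons over 12 samples in 3 groups (9 residual degrees of freedom), with technical arrays averaged to 1 sample a stage. Correlations used 100000 permutations, two-sided (Python 3.11.15, scipy 1.17.1). Genes named were every metallothionein, Th, Slc6a3, Nanog, all of the first list, the 3 genes of each other list with the largest control minus primary difference past the threshold, the 2 genes next to Mt2 and the 5 genes most like each metallothionein; Slc1a2, Bbs2, Nup93 and the members of the choroid plexus and endoderm lists were named after their values were seen. The members, lists and tests were chosen with earlier results of these data known. Alternatives covered replicates, primary stage, the arrays numbered 5, normalization, dim genes, variance model and the replicate number as a block. Of the lists, Sco2, Hsf1, Hspa1b, Lmx1a, Gcm1, Prl2c2 and Prl3d1, among others, were not analysed here.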

Additional observations from a re-analysis of the deposited data

Results flagged for a closer look

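Of 22 groups of 5 arrays examined, 10 held 1 array far from the rest, and it was always array 5; chance flags about 1 in 20 groups, and the groups are not independent, since related genes and lists share these arrays. Among the metallothioneins, Mt2 was 11.87 on control array 5, below 12.40 to 12.51 on the other control arrays, whereas on treated array 5, at 12.08 against 12.42 to 12.80, its gap was not as large relative to the range. The other flags were for cell type markers. On treated array 5 Th was 9.22, Slc6a3 8.87, the mean of the midbrain dopaminergic neuron markers 7.92 and that of the neuron markers 8.19. On control array 5 the values were 8.52 for Th, 8.44 for Slc6a3, 6.42 for Nanog, 7.55 for the dopaminergic mean and 7.83 for the neuron mean. Marker lists that are not among the flags could stand apart too. The mean of the muscle markers was 7.90 on treated array 5, against 6.70 to 6.80 on the other treated arrays. It was 6.93 on control array 5, against 6.62 to 6.74 on the other control arrays. Whether the makeup of these samples and their Mt2 level are related was not tested.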

How the results depend on the processing

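The treated minus control differences of Mt1, Mt2 and Mt3 did not pass under any of 18 alternatives each. With each replicate left out in turn, Mt1 ran from 0.01 to 0.16, Mt2 from 0.04 to 0.26 and Mt3 from -0.29 to 0.03; the sign of Mt3 turned without treated replicate 4 (0.03) and without control replicate 3 (0.0152). A fit with a replicate block left the differences at 0.07, 0.16 and -0.10 with SEs of 0.09, 0.08 and 0.18 (limma adjusted p = 0.999 for each gene), and called 1 gene higher and 0 lower over all genes. Across genes, the deviations of same-numbered treated and control arrays from their group means correlated at 0.045, 0.52, 0.435, 0.718 and 0.798 for numbers 1 to 5. The match was best with the own number for 2, 4 and 5, where the highest value with another number was 0.09, 0.228 and -0.097. Arrays of these numbers thus shared part of their spread. No label says that equal numbers mark pairs, so the main fit left the block out. That fit and the permutation tests ignore this sharing. By limma the unadjusted p of Mt2 was 0.0891 with the block and 0.338 without it. Treated minus control at equal numbers 1 to 5 was 0.13, 0.36, 0.07, 0.02 and 0.22 for Mt2, higher in 5 of 5, while the 5 differences of Mt1 and of Mt3 had both signs.

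Against a single stage, Mt1 moved: its difference was 4.92 in treated and 4.85 in control cells with E13.5 alone as primary and 4.25 and 4.18 with E14.5 alone, while those of Mt2 and Mt3 moved by less than the spread between replicates. The E14.5 minus E13.5 difference of Mt2 ran from -0.29 to 0.08 with 1 array left out, and its sign turned without E13.5 replicate 1 (0.0825) and without E14.5 replicate 2 (0.0115). With E14.5 alone as primary, which leaves 1 primary sample, fewer metal-handling and stress genes were lower in control cells than the 7 with both stages. The Pearson correlation of Mt1 and Mt3 after subtraction of group means was 0.74, past the threshold. Signs of values that never passed turned for Slc30a1 in control cells with E13.5 alone (-0.0036) and for Selenoh. Selenoh was 0.1083 in control cells without both arrays numbered 5 and ran from -0.2145 to 0.1083 with 1 array left out. In treated cells it was -0.0079 with E14.5 alone, -0.009 with centred arrays and -0.074 after quantile normalization, and ran from -0.2179 to 0.1533 with 1 array left out. The causes were not tested. No other probe set named a metallothionein alone, so that alternative was not run. Precision is limited by 2 primary samples and, for Mt2 in primary neurons, by a signal near the array median; no detection calls were used here.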
